A study of Mus musculus with 8 samples.

Results

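Bile acid synthesis, transport and sensing were described in mouse liver through 32 genes, chosen by name as the enzymes, transporters and receptors of these processes. They were found among the 55450 gene identifiers of the tables, and 30 of the 32 had enough counts to be tested. RNA was measured in 8 livers. The 4 control livers came from mice with both Cebpa alleles floxed and no Cre (Cebpafl/fl, Cre-). The 4 knockout livers came from mice whose hepatocytes had lost Cebpa (CebpaΔHep, Cre+). Cebpa codes for C/EBP alpha, which drives many genes of the mature hepatocyte. No source used here names the promoter that drives Cre. All mice entered the feeding at 10 weeks of age, matched for body weight. They took the same liquid diets, without ethanol for 5 days and then with 5% ethanol by volume for 4 weeks. Ethanol-free livers are not analysed here, and the values compare genotypes, not diets. The labels do not say whether the mice came from separate litters, and the p-values measure the spread between these livers.

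Hepatocytes make bile acids from cholesterol. The classical route starts with Cyp7a1, which sets its rate, and the alternative routes start with oxidation of the sterol side chain and continue through other hydroxylases. The side chain is shortened in peroxisomes, and the product is joined to taurine (in mouse) before the canalicular pump Abcb11 moves it into bile. Bile acids returning from the gut are taken up from blood by Slc10a1 and the Slco transporters, and the nuclear receptor FXR (Nr1h4) and FGF15 signalling through Fgfr4 and Klb hold synthesis in check.

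The expected counts summed to between 21048350 and 28148744 per liver, and 1 count was worth 0.0341 to 0.0485 CPM (counts scaled to library size by TMM factors). Cebpa was lower in all 4 knockout livers (5.43 to 9.26 CPM) than in any control (263.6 to 320.3 CPM). The difference was -5.37 on the log2 scale (SE 0.18, edgeR adjusted p = 4.78e-07, exact permutation p = 0.0286, two-sided and the smallest that 70 splits allow). The summed level of 12 hepatocyte markers was 102088 to 121521 TPM (transcript abundance scaled to gene length) in controls and 120898 to 131510 TPM in knockouts. Alb and Apoa2 made up most of that sum, and the other 10 markers gave 33963 to 40928 TPM and 33543 to 38072 TPM. Of the 12, 7 had a negative log2 fold change (median -0.15) and none passed the test. At an edgeR unadjusted p below 0.05 there were 3 hepatocyte markers (25%), 2 lower and 1 higher, beside 18.5% of all genes. The 14 cholangiocyte markers, all with counts, summed to 30.8 to 72.7 TPM in controls and 129.4 to 425.4 TPM in knockouts. Most of this was Spp1, and the other 13 summed to 8.39 to 11.6 TPM in controls and 15.6 to 19.2 TPM in knockouts. Of the 14, 8 were tested, and Spp1, Epcam and Krt19 rose. All 8 had a positive log2 fold change (median 0.97) and an edgeR unadjusted p below 0.05. The macrophage and Kupffer list summed to 184.9 to 386.7 TPM in controls and 314.5 to 548.7 TPM in knockouts, and no marker of it passed the test. All 12 of its markers had a positive log2 fold change (median 0.55). Of them 5 (41.7%) had an edgeR unadjusted p below 0.05, beside 18.5% of all genes. Stellate markers summed to 131.4 to 267.9 and 244.2 to 386.2 TPM, and endothelial markers to 115.4 to 151.6 and 145.0 to 209.7 TPM, again with no call. The log2 fold change was positive for all 12 stellate markers (median 0.33) and for 11 of 12 endothelial markers (median 0.25). At an edgeR unadjusted p below 0.05 there were 4 stellate (33.3%) and 3 endothelial markers (25%), all higher. The lymphocyte and neutrophil markers summed to 3.34 to 6.36 TPM in controls and 4.98 to 11.6 TPM in knockouts, with Ly6g at 0, and the 1 marker tested did not pass. The 8 ileum markers summed to 154.3 to 693.8 TPM in controls and 164.6 to 312.1 TPM in knockouts, nearly all of it Apoa4 and Fabp2, which liver also expresses. Of the 3 ileum markers tested none passed, and Sis and Cdx2 had no count. Control 2 and knockout 4 stood apart from their groups in earlier results of these data. Calls of bile acid genes that change without both of them are therefore given both ways. Both livers were picked from these same data. Where such a liver lay nearest the other group, removing it had to widen the difference, so the p-value without it is no independent test.

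Among the 32 genes, the oxysterol hydroxylase Cyp39a1 and the bile acid importer Slc10a1 fell in the knockouts, and no gene rose. These are 2 of 30 tested genes (6.67%) at an edgeR adjusted p below 0.05, where 2.06% of all 13303 tested genes were called, 1.21% lower and 0.849% higher. Over all genes that split was 161 lower and 113 higher, and 115 lower and 161 higher when scaled by library size alone, with the same 2 bile acid genes called. The call of Slc10a1 lay close to the threshold (edgeR adjusted p = 0.0493) and was lost in 10 of 17 alternatives. At an unadjusted p below 0.05 there were 9 (30%) against 18.5% of all genes. Of the 9, 6 were lower, where 8.9% of all genes were, and 3 higher, where 9.61% were. The groups did not overlap for 6 (20%) against 11.4% of all genes. Of the 6, 5 were lower (5.92% of all genes) and 1 higher (5.52%). DESeq2 called 7 of the 30, where it called 5.68% of 14872 genes. The sign was negative for 19 of the 30 and positive for 11, and the median log2 value of -0.16 compares with 0.004 over all tested genes. On log2(TPM + 1) values these medians were 0.01 and 0.09. Without control 2 and knockout 4, 5 of the 30 were called, all lower. That fit called 431 of all genes, beside 274 with all livers. The 5 include Cyp8b1 and Nr1h4, for which control 2 was the lowest control and knockout 4 the highest knockout. A lower level in whole liver can mean fewer cells that express the gene or less RNA per cell, which bulk RNA cannot tell apart.

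**Figure D1:**
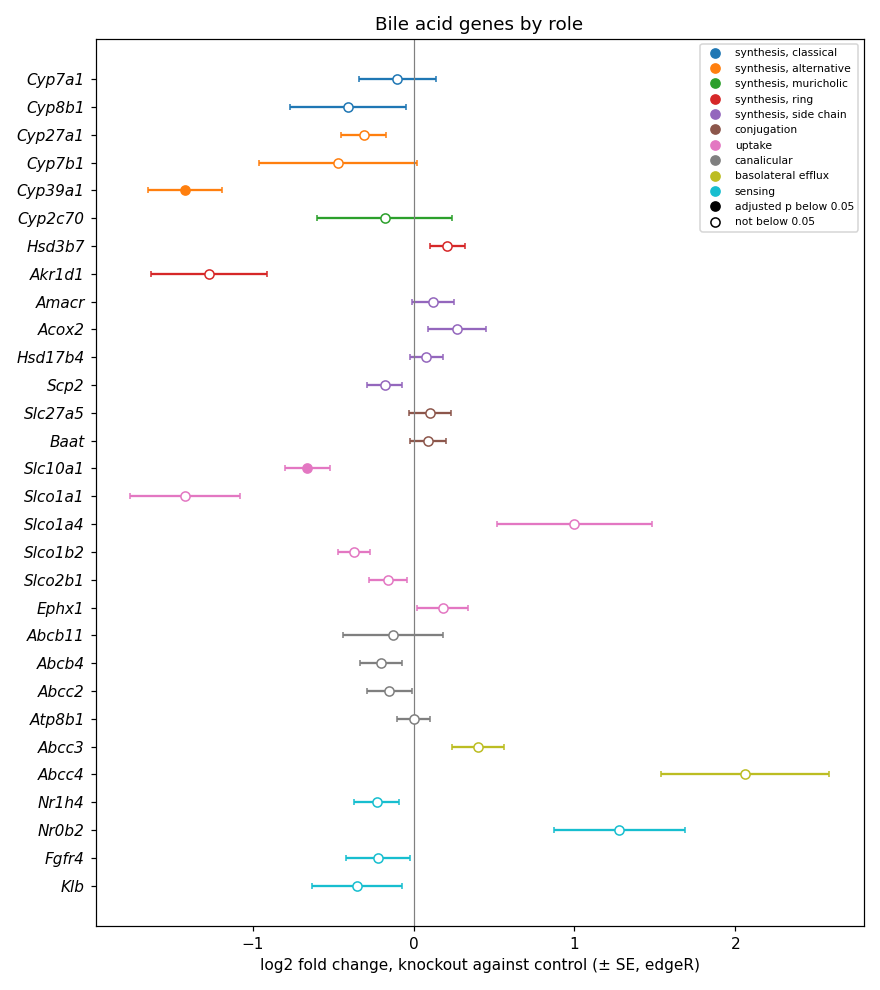
Log2 fold change of each tested bile acid gene, knockout against control, with its SE from edgeR (x axis), in order of role (y axis, colours), where filled points have an adjusted p below 0.05. Cyp39a1 at -1.42 and Slc10a1 at -0.66 are filled, while Abcc4 at 2.06, Slco1a1 at -1.42, Nr0b2 at 1.28 and Akr1d1 at -1.27 are open with wide bars.

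Levels are compared between genes per length, in TPM. Scp2, the peroxisomal thiolase and sterol carrier, was at 3357 ± 228 TPM in controls (SD, n = 4), far above the importer Slco1b2 at 507.6 ± 16.2 TPM and the bile acyl-CoA synthetase Slc27a5 at 469.4 ± 34.8 TPM, which overlapped each other. Slc10a1 came next, at 445.9 ± 53.8 TPM. The counts of Scp2 were not whole in any of the 8 livers, and Podn overlaps its locus. From Slco1b2 down to Slco2b1 (mean 63.3 TPM), each gene overlapped its neighbour in the order over the control livers. Cyp7a1 ranked 24 of 32, at 17.4 ± 2.55 TPM, near Cyp39a1 and Nr0b2. In knockouts Slc10a1 moved from rank 4 to rank 6, Slco1a1 from 10 to 19 and Akr1d1 from 18 to 22. Slc10a1, at 255.1 to 355.5 TPM in knockouts, overlapped its neighbours there, Hsd17b4 (308.5 to 369.6 TPM) and Cyp27a1 (274.1 to 337.1 TPM). The changes of rank were not tested.

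**Figure D2:**
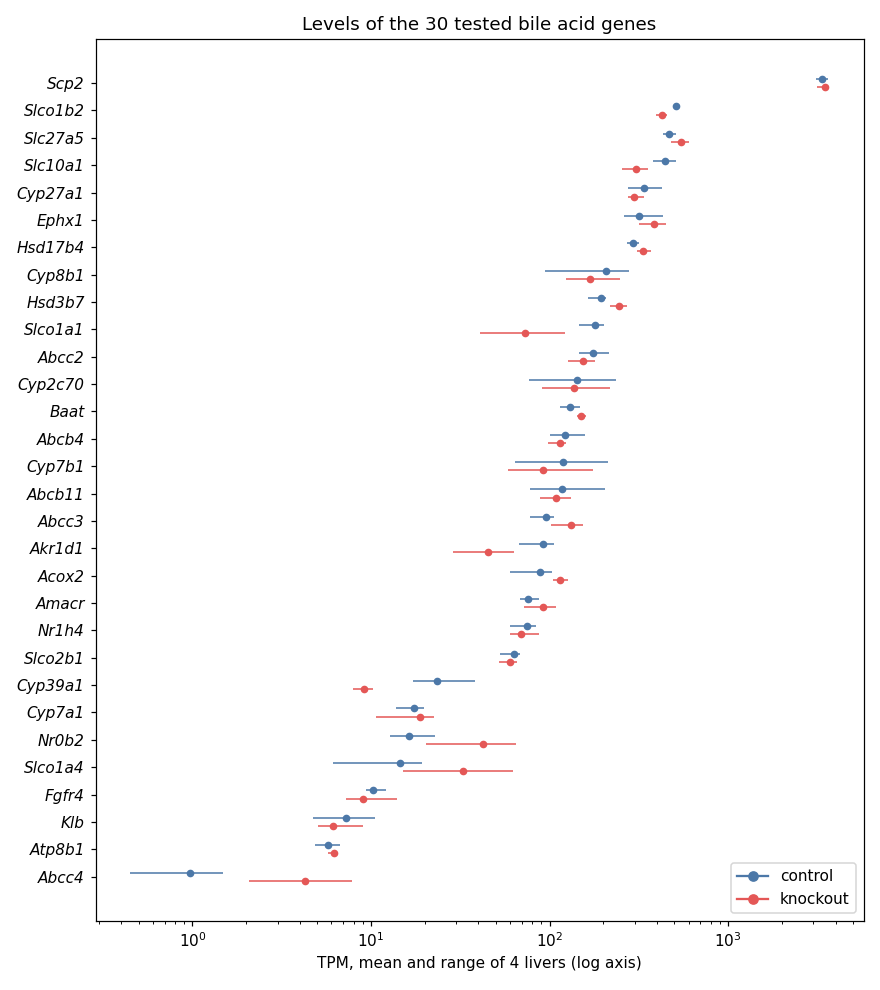
TPM of the 30 tested genes on a log axis (x), ordered by their control mean (y), where points are means and lines the range of 4 livers, blue for controls and red for knockouts. The ranges are apart for Cyp39a1, Akr1d1, Slc10a1, Slco1a1 and Slco1b2 (lower in knockouts) and for Hsd3b7, Acox2 and Abcc4 (higher). They overlap for Cyp7a1 and the others. On CPM the ranges of Hsd3b7 and Acox2 overlap, and on TPM those of Acox2 are barely apart (at most 103.7 in controls, at least 104.2 in knockouts). On CPM the ranges were apart for 6 of the 30 (20%), beside 11.4% of all genes. The share of all genes apart on TPM was not worked out, so the genes apart on TPM cannot be read against it. On log2(TPM + 1) values the log2 fold change was positive for 9162 of all tested genes and negative for 4141.

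The classical route did not differ beyond the spread of the livers. Cyp7a1, its rate-limiting enzyme, was at 61.1, 38.0, 57.8 and 52.9 CPM in controls 1 to 4. It was at 48.0, 59.2, 28.6 and 60.3 CPM in knockouts 1 to 4. The groups overlapped, and knockout 3 lay below every control. The knockout-control difference came to -0.10 on the log2 scale (SE 0.24; adjusted p = 0.861 by edgeR), with a positive sign on TPM values (0.06) and without knockout 3 (0.08). Cyp8b1, the hydroxylase that directs synthesis to cholic acid, was at 275.4, 129.7, 386.4 and 389.8 CPM in controls. Its knockout values were 209.0, 153.4, 204.5 and 320.9 CPM. Control 2 lay below every knockout liver and knockout 4 above the other 3. The difference came to -0.41 on the log2 scale (SE 0.36; adjusted p = 0.575 by edgeR), and without these 2 livers together -0.89 (adjusted p = 0.0326). These livers were the lowest control and the highest knockout, so removing them had to widen the fall, and that p-value is no independent test. The ratio of Cyp8b1 to Cyp7a1, on TPM, ran from 6.78 (control 2) to 15.5 (control 4) in controls and from 5.47 (knockout 2) to 13.9 (knockout 3) in knockouts, so the groups overlapped.

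Of the enzymes of the alternative routes, Cyp39a1 showed the clearest separation. Cyp39a1 (ENSMUSG00000023963.10, chromosome 17 of mm10, 43667425 to 43751431, plus strand) adds a hydroxyl group to the side chain oxysterol that the brain releases into blood. It was at 34.3, 68.4, 35.4 and 36.5 CPM in controls 1 to 4. It was at 17.0, 17.4, 16.7 and 14.0 CPM in knockouts 1 to 4. The groups did not overlap, control 2 lay far above the other controls, and the knockouts varied little (coefficient of variation 9.61% against 37.9% in controls). The gene fell 2.68-fold, with a log2 fold change of -1.42 (SE 0.23, edgeR adjusted p = 0.0176). Without control 2 the log2 fold change was -1.12 (SE 0.09) and the edgeR adjusted p = 0.000639. Control 2 was picked from these same data and removing it narrowed the spread of the controls, so that p-value is no independent test. The call was lost without knockout 1 (adjusted p = 0.0552) or knockout 2 (0.0613).

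Cyp27a1 (ENSMUSG00000026170.6), the mitochondrial enzyme that oxidizes the sterol side chain, was at 357.6, 532.3, 388.4 and 417.3 CPM in controls. It was at 347.8, 303.5, 392.8 and 319.0 CPM in knockouts. Knockout 3 lay above controls 1 and 3, so the groups overlapped, and edgeR did not call the gene (log2 fold change -0.31, SE 0.14, edgeR adjusted p = 0.26). Cyp7b1, the oxysterol hydroxylase of the next step and a male-biased gene of mouse liver, ranged from 103.0 to 328.9 CPM in controls and from 82.0 to 254.2 CPM in knockouts. Control 2 and knockout 4 were the highest of their groups. The knockout-control difference came to -0.47 on the log2 scale (SE 0.49; adjusted p = 0.653 by edgeR). It was -0.05 without control 2 and -0.97 without knockout 4. Ddx3y, on the Y chromosome, was at 55.1 to 75.2 CPM in every liver. Cyp2c70, which makes muricholic acids in mouse, ranged from 80.1 to 245.3 CPM in controls and from 81.0 to 203.8 CPM in knockouts, a full overlap (edgeR adjusted p = 0.855).

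The 2 enzymes that act on the sterol rings did not move together. Akr1d1 (ENSMUSG00000038641.12, chromosome 6, 37530173 to 37568815, plus strand), the reductase that gives bile acids their bent ring shape, was at 219.3, 125.1, 201.6 and 184.8 CPM in controls. It was at 111.0, 40.9, 103.4 and 47.1 CPM in knockouts. The groups did not overlap, but knockouts 1 and 3 were more than double knockouts 2 and 4. The difference did not pass the test (2.42-fold lower, log2 fold change -1.27, SE 0.36, edgeR adjusted p = 0.123). DESeq2 called it (adjusted p = 0.00171). Hsd3b7, the dehydrogenase of the step before, had a control mean of 230.2 ± 27.1 CPM and a knockout mean of 266.7 ± 23.9 CPM (SD, n = 4; edgeR adjusted p = 0.329), and the CPM ranges overlapped. On TPM they did not, at 164.4 to 207.3 in controls and 219.0 to 270.1 in knockouts. The counts of Hsd3b7 were not whole in 5 livers, and 9430064I24Rik and Gm49388 overlap its locus.

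No enzyme of side chain shortening or conjugation passed the test. In the peroxisomal group the log2 fold changes were 0.27 for the oxidase Acox2, 0.12 for the racemase Amacr, 0.08 for the bifunctional enzyme Hsd17b4 and -0.18 for Scp2, whose sign turned on TPM values (0.05). Their edgeR adjusted p ran from 0.426 to 0.714. Slc27a5 had a control mean of 748.0 ± 73.7 CPM and a knockout mean of 800.7 ± 123 CPM (SD, n = 4; adjusted p = 0.72). For Baat, which joins the amino acid, the means were 184.6 ± 25.0 CPM (control) and 196.6 ± 13.8 CPM (knockout; SD, n = 4; adjusted p = 0.685).

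**Figure D3:**
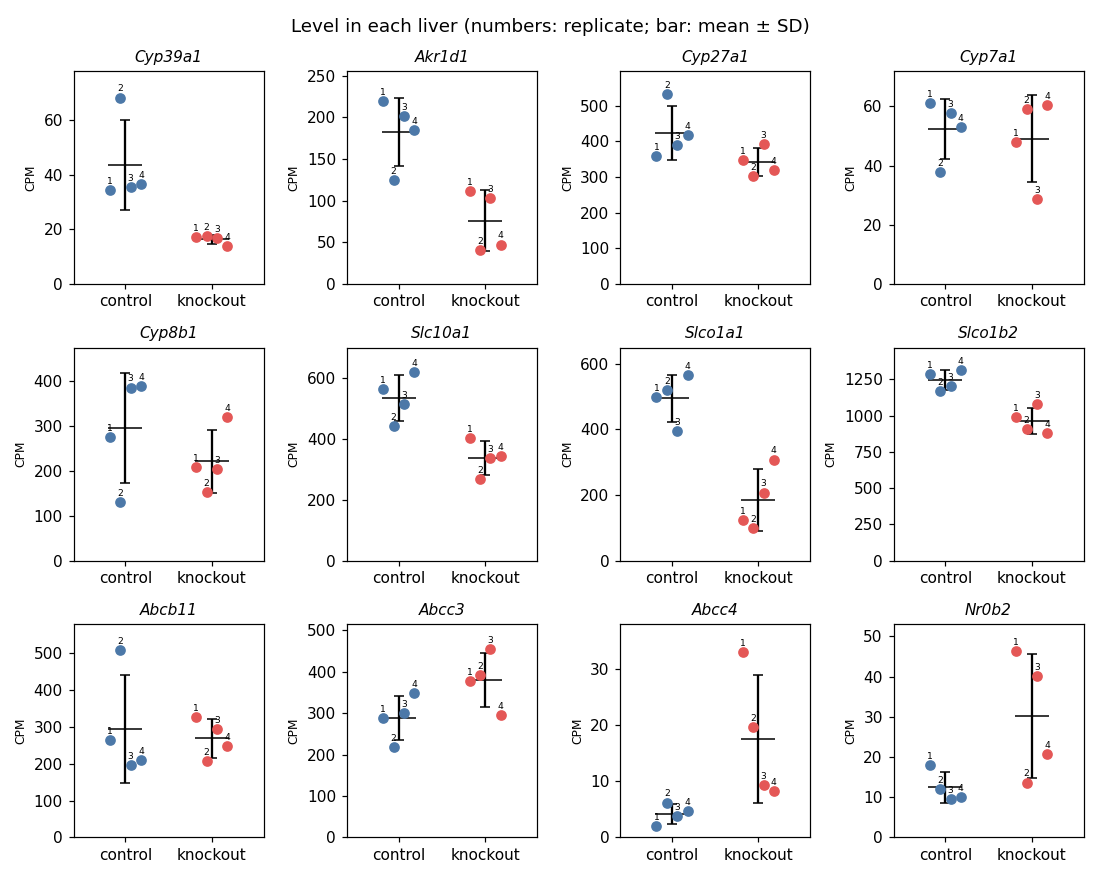
CPM of 12 bile acid genes in each liver (points, numbered by replicate) with the mean and SD of 4 livers (black), on axes that start at 0. Cyp39a1, Akr1d1, Slc10a1, Slco1a1 and Slco1b2 are lower in all 4 knockout livers than in any control, and Abcc4 is higher in all 4.

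Among the uptake transporters of the blood side, Slc10a1 fell, and Slco1a1 and Slco1b2 were lower in every knockout liver without passing the test. Slc10a1 (ENSMUSG00000021135.8, chromosome 12, 80953183 to 80968705, minus strand) encodes NTCP, the sodium-driven importer of conjugated bile acids. It was at 562.1, 441.5, 512.3 and 617.7 CPM in controls. It was at 402.0, 267.3, 335.8 and 343.7 CPM in knockouts. The highest knockout lay below the lowest control. The knockout-control difference came to -0.66 on the log2 scale (SE 0.14; adjusted p = 0.0493 by edgeR), and it ran from -0.77 to -0.57 with 1 liver left out. The call was lost in 7 of those 8 fits, all but the fit without control 2. It was also lost with 1 CPM in 4 livers (adjusted p = 0.051), without robust estimation (0.0529) and on TPM values (0.0588, limma). In all the call was lost in 10 of 17 alternatives. Without control 2 and knockout 4 together the adjusted p was 0.0353.

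Promoters are shown for Slc10a1, which fell, and for Akr1d1 and Abcc4, whose groups did not overlap and which hold the same match. Akr1d1 and Abcc4 were added after their values and matches were seen. Each sequence runs from 250 bases before a RefSeq start to 50 bases after it (GRCm38.p6, the assembly of mm10), on the gene's strand, and 23 of the 32 genes had such an entry. Capitals mark a C/EBP core, TTGCNNAA on either strand. No match overlapped another.
Slc10a1 upstream start, chr12:80968656-80968955, minus strand: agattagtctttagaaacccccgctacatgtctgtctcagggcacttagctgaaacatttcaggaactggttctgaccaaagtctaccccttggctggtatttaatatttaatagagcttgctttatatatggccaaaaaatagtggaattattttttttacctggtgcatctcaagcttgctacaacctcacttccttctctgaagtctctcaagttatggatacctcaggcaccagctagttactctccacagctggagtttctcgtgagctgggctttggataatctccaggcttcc
Slc10a1 downstream start, chr12:80968030-80968329, minus strand: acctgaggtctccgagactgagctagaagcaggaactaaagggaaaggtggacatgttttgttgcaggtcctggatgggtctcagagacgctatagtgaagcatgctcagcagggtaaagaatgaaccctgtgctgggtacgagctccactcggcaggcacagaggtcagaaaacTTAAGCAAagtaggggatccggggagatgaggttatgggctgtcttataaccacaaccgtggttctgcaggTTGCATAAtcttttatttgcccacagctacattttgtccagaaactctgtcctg
Akr1d1, chr6:37529923-37530222, plus strand: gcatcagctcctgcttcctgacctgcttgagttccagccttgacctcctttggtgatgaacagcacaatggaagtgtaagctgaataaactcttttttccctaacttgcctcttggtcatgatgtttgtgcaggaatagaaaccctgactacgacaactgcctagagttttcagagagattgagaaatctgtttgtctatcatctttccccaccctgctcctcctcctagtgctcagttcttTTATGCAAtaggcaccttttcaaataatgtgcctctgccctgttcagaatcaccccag
Abcc4, chr14:118706170-118706469, minus strand: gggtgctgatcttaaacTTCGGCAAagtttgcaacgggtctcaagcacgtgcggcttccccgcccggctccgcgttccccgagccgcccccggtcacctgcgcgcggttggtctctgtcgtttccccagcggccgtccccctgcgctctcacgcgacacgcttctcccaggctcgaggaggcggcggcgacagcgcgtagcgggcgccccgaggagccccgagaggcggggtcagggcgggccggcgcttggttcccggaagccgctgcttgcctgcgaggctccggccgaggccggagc
The downstream Slc10a1 promoter held 2 matches, whose first bases lay at -75 and -4 from the start, and the upstream promoter held none. The Akr1d1 match began at -8 and the Abcc4 match at -233. A further Abcc4 start, whose window is chr14:118676882-118677181, held none. The core was found in promoters of 4 of the 23 genes, the fourth being Acox2. Slco1a1 and Slco1b2, whose groups also did not overlap, had an entry and held no match. Cyp39a1 and Cyp7a1 had no entry and were not searched. The core was in 12.2% of all 27025 genes, counting a gene once whatever its number of promoters. Per promoter it was in 10.8% of 32851. The IR-1 repeat, the inverted repeat bound by FXR, was searched only in its perfect form, with no mismatch allowed. It was found in none of the 23 genes and in 3 of all 32851 promoters. A match that rare was all but certain to be absent from 23 genes, so this search says nothing on FXR sites in them. A match is a run of letters and no evidence of binding.

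Slco1a1 (ENSMUSG00000041698.11, chromosome 6), the organic anion importer that is male-biased in mouse liver, was at 499.2, 519.2, 396.4 and 566.1 CPM in controls. It was at 124.6, 98.4, 207.5 and 308.3 CPM in knockouts, with knockout 4 nearest the controls. The knockout-control difference came to -1.42 on the log2 scale (SE 0.34; adjusted p = 0.0784 by edgeR), and without knockout 4 it was -1.79 (adjusted p = 0.0142). Removing the knockout nearest the controls had to widen the fall, so the latter p-value is no independent test. Slco1a4, its paralog, was at 30.6, 12.7, 28.2 and 34.7 CPM in controls and at 41.1, 44.0, 102.4 and 25.8 CPM in knockouts. Knockout 4 lay within the controls, and edgeR made no call (log2 fold change 1.00, SE 0.48, edgeR adjusted p = 0.315). Without knockout 3 the value was 0.47. The TPM ratio of Slco1a1 to Slco1a4 was 9.08 to 31.4 in controls, 8.10 in knockout 4 and 1.25 to 1.89 in the other 3 knockouts. Both genes had counts that were not whole in all 8 livers, so some of their reads were divided between loci by the authors' estimation. Which loci shared them was not tested. The sum of Slco1a1, Slco1a4, Slco1a5 and Slco1a6, which does not depend on division among them, was 424.6 to 600.8 CPM in controls and 142.5 to 334.2 CPM in knockouts. Slco1a5 and Slco1a6 were each at no more than 0.0485 CPM in any liver, so this sum rests on Slco1a1 and Slco1a4.

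Slco1b2, the most abundant importer and the homolog of the human liver OATP1B transporters, was at 1290, 1172, 1203 and 1314 CPM in controls. It was at 992.1, 906.5, 1081 and 881.3 CPM in knockouts. The groups did not overlap and the difference was small (1.29-fold lower, log2 fold change -0.37, SE 0.10, edgeR adjusted p = 0.106). Slco2b1 and Ephx1, an epoxide hydrolase also reported to take up bile acids, had log2 fold changes of -0.16 and 0.18 (edgeR adjusted p of 0.517 and 0.582). The 6 uptake genes together summed to 1471 to 1592 TPM in controls and 1219 to 1376 TPM in knockouts, without overlap.

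The canalicular transporters, which carry bile acids and lipids into bile, did not differ beyond the spread of the livers. Abcb11, the bile salt export pump, was at 264.8, 507.0, 195.3 and 208.9 CPM in controls. It was at 325.2, 206.3, 292.9 and 248.4 CPM in knockouts. Control 2 stood far above all other livers. The difference came to -0.13 on the log2 scale (SE 0.31; adjusted p = 0.848 by edgeR), and its sign turned without control 2 (0.26). Abcb4, the phosphatidylcholine floppase, was at 290.7, 439.2, 319.0 and 330.4 CPM in controls and at 268.6, 311.3, 317.2 and 303.7 CPM in knockouts (log2 fold change -0.20, SE 0.13, edgeR adjusted p = 0.449). Its highest liver was again control 2, and its counts, not whole in 7 livers, come from a locus that Gm17936 overlaps. Abcc2, which exports conjugates, had a log2 fold change of -0.15 (adjusted p = 0.592). Atp8b1, a phospholipid flippase of the canaliculus, was level between genotypes, with means of 29.0 (control) and 28.9 CPM (knockout, adjusted p = 0.988).

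Of the exporters on the blood side, Abcc4 had the widest separation without passing the test. Abcc4 (ENSMUSG00000032849.14, chromosome 14, 118482692 to 118706219, minus strand) encodes MRP4. It was at 2.03, 6.21, 3.83 and 4.68 CPM in controls. It was at 32.9, 19.6, 9.37 and 8.22 CPM in knockouts. Every knockout lay above every control, and the knockouts spread over a 4-fold range. edgeR gave a log2 fold change of 2.06 (SE 0.52, edgeR adjusted p = 0.099). DESeq2 called it (adjusted p = 0.0083). The cholangiocyte marker sum was also higher in all 4 knockout livers (225.6, 425.4, 129.4 and 227.8 TPM in knockouts 1 to 4). Without Spp1 it was 15.6, 16.6, 15.9 and 19.2 TPM in these livers, against at most 11.6 TPM in a control. Its part in the level of Abcc4 was not tested. Abcc4 overlaps Gm23302 and Gm49033 on the opposite strand, and the strand setting of the counting is not given in the sources used here.

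Abcc3, which encodes MRP3, was at 287.4, 217.5, 300 and 347.6 CPM in controls and at 377.8, 391.6, 455.7 and 295.9 CPM in knockouts. Knockout 4 lay among the controls and the other 3 knockouts above them. edgeR gave a log2 fold change of 0.40 (SE 0.16, edgeR adjusted p = 0.227). Slc51a and Slc51b, the subunits of a heteromeric bile acid exporter that is strong in ileum, were close to absent. Slc51a had 0 counts over the 4 controls, which allows up to 0.0335 CPM (3 counts), and 1 count over the 4 knockouts. Slc51b had 11 and 7 counts. Neither was tested.

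Among the sensors, Nr0b2 was higher in the knockout mean with wide spread. Nr0b2 (ENSMUSG00000037583.2) encodes the corepressor SHP, a target of FXR that damps Cyp7a1 and Cyp8b1. It was at 18.0, 12.1, 9.48 and 10.1 CPM in controls. It was at 46.3, 13.7, 40.2 and 20.6 CPM in knockouts. Knockout 2 lay below control 1, so the groups overlapped. edgeR gave a log2 fold change of 1.28 (SE 0.41, edgeR adjusted p = 0.155), while DESeq2 called it (adjusted p = 0.00829).

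Nr1h4, which encodes FXR, was at 108.6, 84.1, 116.7 and 122.4 CPM in controls and at 85.3, 85.4, 82.9 and 114.8 CPM in knockouts. Knockouts 1 to 3 were near control 2, the lowest control. The difference came to -0.23 on the log2 scale (SE 0.14; adjusted p = 0.414 by edgeR), and without control 2 and knockout 4 it was -0.46 (adjusted p = 0.0172). Here too the lowest control and the highest knockout were removed, which had to widen the fall, so that p-value is no independent test. Fgfr4, the FGF15 receptor, was at 24.01, 28.6, 21.6 and 22.1 CPM in controls and at 17.8, 16.5, 17.7 and 30.7 CPM in knockouts (log2 fold change -0.22, SE 0.20, edgeR adjusted p = 0.591). Without knockout 4 the value of Fgfr4 was -0.48 (edgeR adjusted p = 0.0568). Knockout 4 lay above every control for Fgfr4, so removing it had to widen the fall, and that p-value is no independent test. The co-receptor of Fgfr4, Klb, was at 17.6, 27.6, 11.9 and 19.6 CPM in controls and at 13.2, 11.9, 12.9 and 22 CPM in knockouts (log2 fold change -0.35, SE 0.28, edgeR adjusted p = 0.531). It ran from -0.60 without knockout 4 to -0.13 without control 2. For both receptors knockout 4 was the highest knockout and control 2 the highest control. The hormone gene Fgf15 and the receptor gene Gpbar1 had no count in any liver.

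**Figure D4:**
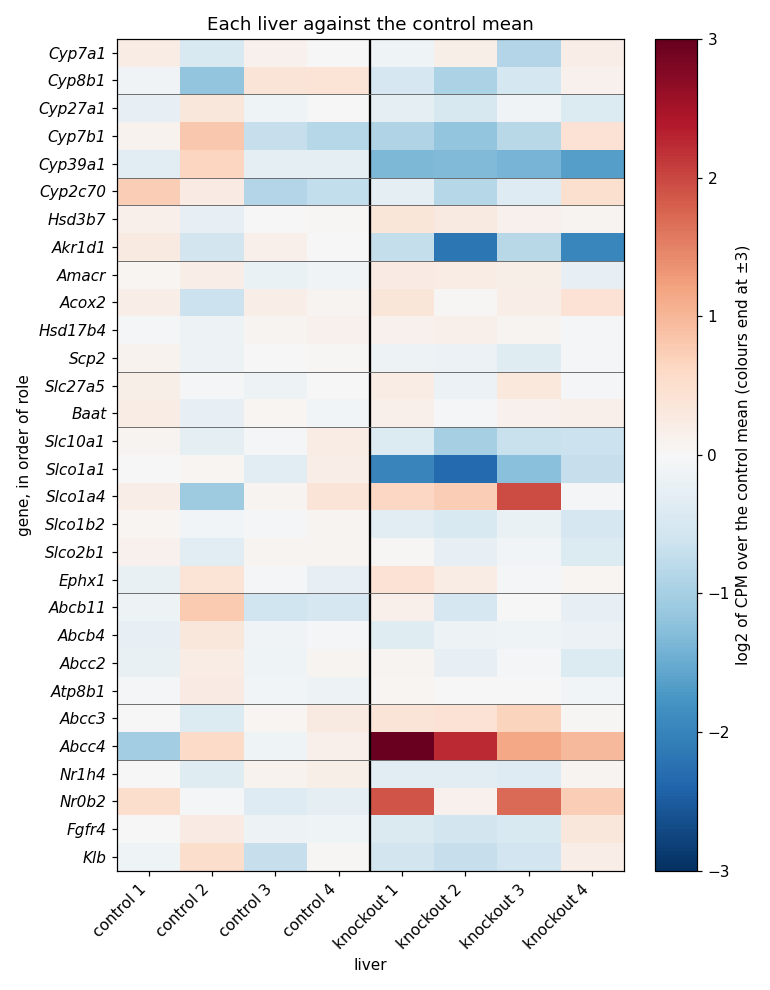
Log2 of the CPM in each liver over the control mean (colour) for the 30 tested genes in order of role (rows) and the 8 livers (columns). Cyp39a1 and Slco1a1 are blue in all 4 knockouts, Abcc4 is red in all 4, and control 2 differs from the other controls in Cyp8b1, Abcb11 and Slco1a4.

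Other genes of the pathway were read from a pair of lists. Of 22 further enzymes and transporters, 20 were tested and edgeR called 0. There were 3 at an unadjusted p below 0.05, all lower, or 15% of the list beside 18.5% of all genes. DESeq2, which called 5.68% of all genes, called the same 3. These were Sult2a8, a sulfotransferase that acts on bile acids in mouse liver (814.5 ± 164 CPM in controls and 489.0 ± 120 CPM in the knockout livers; SD, n = 4; edgeR adjusted p = 0.0921), Ugt1a1, a glucuronosyltransferase (692.7 ± 43.3 CPM in controls, 350.9 to 621.2 CPM in knockouts, adjusted p = 0.0997), and Cyp46a1, a cholesterol hydroxylase best known in brain (log2 fold change -1.32, adjusted p = 0.103). For Sult2a8 and Ugt1a1 every knockout lay below every control. The apical importer Slc10a2 was next to level, with group means of 47.4 (control) and 48.4 CPM (knockout, edgeR adjusted p = 0.953). The median log2 fold change of the list was -0.08.

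Of 23 regulators, 20 were tested and edgeR and DESeq2 each called 0. At an unadjusted p below 0.05 there were 4, all lower, or 20% of the list beside 18.5% of all genes. These were the LXR genes Nr1h3 (log2 fold change -0.22, edgeR adjusted p = 0.13) and Nr1h2 (-0.33, adjusted p = 0.133), the pioneer factor gene Foxa3 (-0.45, adjusted p = 0.134) and the coactivator gene Ncoa1 (-0.28, adjusted p = 0.165). The hepatocyte factor Hnf4a was at 832.0 ± 67.3 CPM in controls and at 446.0, 617.5, 673.2 and 844.9 CPM in knockouts 1 to 4 (edgeR adjusted p = 0.291), with knockout 4 within the controls. Of the 20, 17 had a negative log2 fold change, and the median was -0.20.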

How the data were processed

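Stranded TruSeq mRNA libraries were made from polyadenylated liver RNA, per the labels' protocols. Tools listed in the submitters' processing notes are RSEM 1.2.22, STAR 2.5.1, Trimmomatic 0.36, Picard 1.84 and DESeq2, with mm10 as the build. Each deposited table holds expected counts, the estimates by which the authors divided reads shared by genes, and the authors' TPM values. Which strand setting and annotation release were used is not given in the sources used here. GENCODE M21, which supplied coordinates, matched all 55450 identifiers. Values of the series table equalled those of the single-liver tables.

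Groups and replicate numbers came from the titles. Deviations of same-numbered livers correlated at 0.207, 0.00904, -0.0243 and -0.0672, so numbers were not used as pairs. No 2 livers of a group agreed within sampling noise.

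After rounding, the counts were tested with edgeR 4.0.16 under R 4.3.3 (filterByExpr at 10 counts and 15 in total, TMM factors, robust quasi-likelihood test, two-sided, Benjamini-Hochberg adjustment over 13303 genes, threshold 0.05). CPM values use TMM-scaled sizes. SEs come from the fold change and the F statistic. The steps were tested on simulated data. Alternatives were no filter, 1 CPM in 4 livers, RLE factors, scaling by library size, DESeq2 1.42.0, limma 3.58.1 on log2(TPM + 1), no robust estimation, a replicate block, each liver left out, and removal of control 2 and knockout 4. Promoters are from RefSeq, GRCm38.p6. Figures used matplotlib 3.10.9.

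The 32 genes, the lists and the alternatives were chosen with earlier results of these data known. All genes with an unadjusted p below 0.05 and the main step or sensor of each role are given per liver, the rest by group. Of the other pathway lists, called genes and up to 4 by smallest p were to be named, and Slc10a2, Hnf4a, Fgf15, Gpbar1 and the named markers were added after their values were seen.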

Additional observations from a re-analysis of the deposited data

Results flagged for a closer look

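A liver far from the 3 others of its group was found in 9 of the 64 groups of 4 livers examined (32 genes in 2 genotypes), where chance gives about 1 in 20 for independent groups. The genes come from the same livers and are not independent, and for Slc51a a single count sets the gap. Knockout 4 was that liver in 5. It was highest for Cyp7b1 (254.2 CPM, others 82.0 to 105.7), Nr1h4 (114.8, others 82.9 to 85.4), Fgfr4 (30.7, others 16.5 to 17.8) and Klb (22, others 11.9 to 13.2), and lowest for Amacr (100.1, others 134.6 to 139.9). Control 2 was highest for Cyp39a1 (68.4 CPM, others 34.3 to 36.5) and lowest for Slco2b1 (121.8, others 159.6 to 165.8). Knockout 2 was lowest for Baat (176.2 CPM, others 200.6 to 205.0). Slc51a was at 0.0457 CPM in knockout 3, a single count, and at 0 in the other knockouts.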

How the results depend on the processing

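Over 17 alternatives to the fit of 30 genes, 23 genes kept their sign throughout, and 9 changed side of the threshold somewhere. The number of the 32 genes called, 2 as reported, was 1 with 1 CPM in 4 livers, without robust estimation and on TPM values (Cyp39a1 each time), 7 by DESeq2 (5 lower, 2 higher), 5 without control 2 and knockout 4, and 0 to 2 with 1 liver left out, the 0 without knockout 1 or knockout 2. Signs turned for 7 uncalled genes. On TPM values these were Cyp7a1 (0.06), Cyp2c70 (0.02), Scp2 (0.05) and Atp8b1 (0.10). Without control 2 and knockout 4 they were Baat (-0.00), Abcb11 (0.30), Abcc2 (0.01) and Atp8b1 (0.11). Atp8b1 was at 0.07 with library size alone and at 0.00 with 1 CPM in 4 livers and with the replicate block. With 1 liver left out the log2 fold change ran from -0.22 to 0.08 for Cyp7a1, -0.49 to 0.18 for Cyp2c70, -0.29 to 0.26 for Abcb11 and -0.06 to 0.09 for Atp8b1. Leaving out 1 liver moved the log2 fold change from -0.97 to -0.05 for Cyp7b1, 0.47 to 1.23 for Slco1a4, -0.48 to -0.12 for Fgfr4 and -0.60 to -0.13 for Klb. Of the other pathway genes, DESeq2 called 3, and leaving out 1 liver gave 0 to 1 (Ugt1a1 without knockout 3, Foxa3 without knockout 4). Over all genes 274 were called, 176 with the replicate block, 844 by DESeq2, 431 without control 2 and knockout 4, and 108 to 372 with 1 liver left out. With the block, which rests on a shared number alone, 3 bile acid genes were called, the third being Akr1d1 (log2 fold change -1.38, adjusted p = 0.0324). With library size alone the split over all genes was 161 higher and 115 lower, against 113 and 161, and on TPM values 144 and 84. Depth left Slc51a and Slc51b untested, and the other 30 genes passed the count filter. Counting intervals cover counting error only.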

Other observations

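The ratio of the canalicular exporter to the importer, Abcb11 to Slc10a1 on TPM, was 0.237, 0.541, 0.177 and 0.153 in controls 1 to 4 and 0.371, 0.345, 0.392 and 0.321 in knockouts 1 to 4. Apart from control 2, which lay above all other livers, every control was below every knockout. The ratio of the blood-side exporter to the importer, Abcc3 to Slc10a1, was 0.204 to 0.236 in controls and 0.323 to 0.55 in knockouts, without overlap. Slc10a1, the denominator of both, was itself lower in every knockout than in any control. A ratio over it can therefore part the groups without a change in the exporter. These ratios were chosen after earlier results of these data were known and were not tested.

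The genes differed in how evenly they were held among livers of a genotype. The median coefficient of variation of CPM was 18.3% in controls and 15.8% in knockouts. Cyp7b1 (55.6% and 58.9%) and Cyp2c70 (53.3% and 40.2%) were uneven in both groups, while Scp2 (7.45% and 8.39%) and Hsd17b4 (8.76% and 6.45%) were even in both. Slco1a1 was even in controls (14.4%) and uneven in knockouts (51.2%), and Abcb11 the reverse (49.4% and 19.3%). Of the 30 tested genes, knockout 4 was the knockout nearest to the control mean for 13, and knockouts 1, 2 and 3 for 5, 4 and 8. Among the 9 genes with an edgeR unadjusted p below 0.05, it was nearest for 3 and each other knockout for 2. Controls 1 to 4 were the control nearest to the knockout mean for 11, 7, 8 and 4 of the 30.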
